A study of Mus musculus with 34 samples.

Results

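The potassium channel genes of the mouse dorsal hippocampus are described here, as they were expressed in homecage (HC) mice and in mice 1 h after training in spatial object recognition (SOR), a task in which mice learn where objects are placed in an arena. They were chosen by name: every protein-coding row of the bulk RNA-seq count table whose GENCODE mouse symbol begins with *Kcn* was taken, which gave 94 of 54532 genes. The rule itself reads only the symbol and the gene type. Of these 94 genes, 83 had enough counts to be tested, and the remaining 11 are named with their counts near the end. All mice were male C57BL/6J, 2 to 3 months old and had been housed singly for 7 days. The HC group of 4 mice was not trained, the SOR group of 4 mice was trained and euthanized 1 h later, and each mouse gave 1 library. The tissue is the whole dorsal hippocampus, so that in these data fewer cells of a type and less RNA per cell cannot be told apart. Spatial and single-nucleus samples of the study were not analysed here.

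Potassium channels let potassium ions leave the cell, or at negative potentials enter it, and thereby set the resting potential, shorten action potentials and control how often a neuron fires. The voltage-gated families (*Kcna* to *Kcnd*, *Kcnh* and *Kcnq*) open on depolarization, the calcium- or sodium-activated families (*Kcnm*, *Kcnn*, *Kcnt*) follow the ions that enter during activity, the inward rectifiers (*Kcnj*) and the leak channels with a pair of pore domains (*Kcnk*) act near rest, and the *Kcnf*, *Kcng*, *Kcns* and *Kcnv* subunits form no channel alone but modify those of *Kcnb*. Auxiliary subunits (*Kcnab*, *Kcnip*, *Kcne*, *Kcnmb*) alter trafficking and gating. In the hippocampus, A-type, M-type and small-conductance calcium-activated currents are known to tune dendritic integration, excitability and synaptic plasticity.

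Total counts per library lay between 51406011 and 81525977. Values are given as CPM, the estimated counts of a gene relative to the library size after scaling with upper-quartile factors, and log2 fold changes (log2FC) are SOR over HC. The groups were compared with the quasi-likelihood test of edgeR over 22018 genes, with Benjamini-Hochberg adjustment over all of them, and the threshold for a call was an adjusted p of 0.05. The immediate early genes *Arc* (log2FC 1.42, adjusted p = 8.27e-06), *Fos* (1.89, adjusted p = 0.00477) and *Egr2* (2.75, adjusted p = 0.000466) and the kinase gene *Sgk1* (1.35, adjusted p = 0.000378) were higher in the SOR libraries. Markers of the tissue were present in every library: the summed CPM of 5 hippocampal and excitatory neuron genes was 3087 to 3566 in HC and 3268 to 3657 in SOR. The corresponding ranges were 242 to 275 and 245 to 275 for 4 CA1 genes, 154 to 175 and 157 to 174 for 4 CA3 genes, 299 to 353 and 291 to 345 for 5 dentate granule cell genes, 475 to 494 and 462 to 513 for 6 inhibitory neuron genes, 4405 to 4620 and 4356 to 4719 for 8 astrocyte genes, and 110 to 137 and 101 to 131 for 4 thalamus genes. The 6 choroid plexus genes differed far more between libraries, from 25.1 to 1091 in HC and from 41.3 to 3988 in SOR, with the highest sum in SOR replicate 1. Within the groups, pairs of libraries differed by a chi-square of 11.9 to 54.1 per degree of freedom, with the 3 pairs that hold SOR replicate 1 at 48.9 to 54.1 and the pair of HC replicates 1 and 3 at 49.9.

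The level of the channel genes was first set out per kilobase of exon, to compare genes of different length with each other. The length is the union of all annotated exons, not that of the transcripts expressed, so the ranking and the shares depend on the annotation. The auxiliary genes held 29.0% to 32.1% of the summed CPM per kb of all 94 genes in the 8 libraries, followed by *Kcnj* (16.1% to 17.7%), *Kcna* (8.78% to 10.9%) and *Kcnk* (7.25% to 8.18%). The highest single gene was *Kcnab2*, which encodes the main beta subunit of axonal *Kcna* channels, at 95.6 CPM per kb over the 8 libraries. It was followed by *Kcnj3* (38.1), a subunit of the G protein-gated inward rectifier, by *Kcnd2* (35.4), the pore of the dendritic A-type channel, by the leak channel gene *Kcnk1* (33.8), by *Kcnip2* (24.3), a calcium-binding subunit of *Kcnd* channels, and by *Kcna1* (22.3), an axonal channel. These 6 genes together held 37.5% of the summed level, and the 20 genes at or above 10 CPM per kb held 69.4%. Lower levels were seen for the highest gene of the calcium- and sodium-activated channels, the large-conductance channel gene *Kcnma1* (16.2), and for the fast-spiking channel gene *Kcnc2* (10.5), *Kcnh7* of the ether-a-go-go related channels (9.48) and the modifier gene *Kcnv1* (8.90). The summed level of all 94 genes was 666 ± 7.49 CPM per kb in HC and 666 ± 14 in SOR (SD, n = 4 each).

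**Figure D1:**
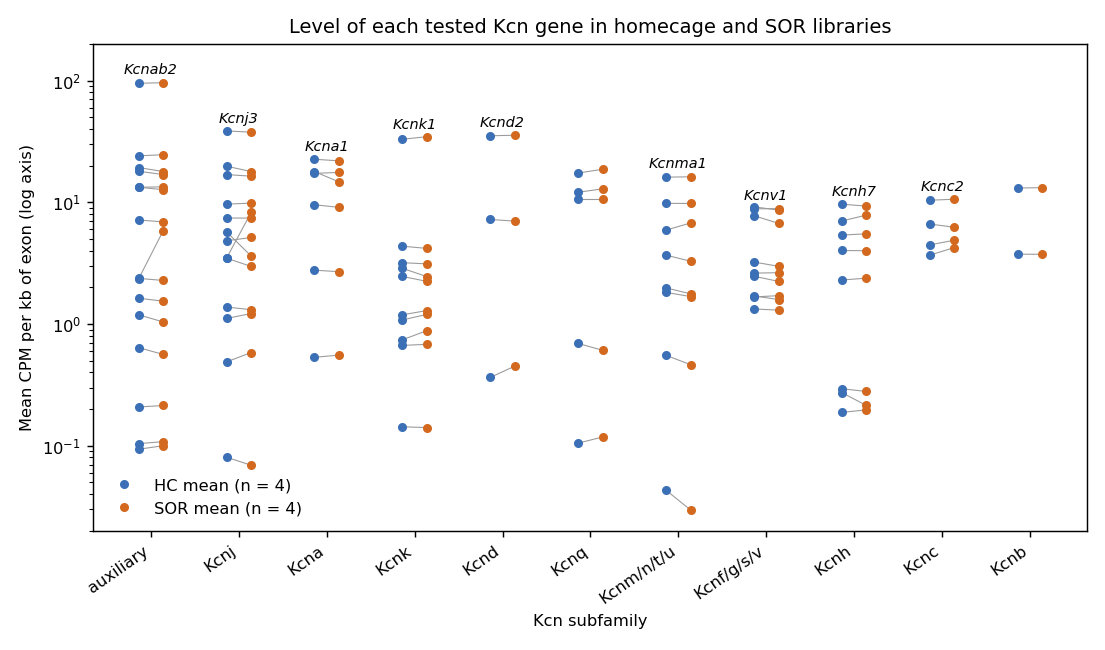
Mean CPM per kb of exon (log axis) of each tested Kcn gene, by subfamily, with the HC mean (blue, n = 4) joined to the SOR mean (orange, n = 4); the highest gene of 9 subfamilies is named. *Kcnab2* stands at the top with 95.6 CPM per kb, and most lines of genes above 1 CPM per kb are close to level, while those of *Kcnj13* and *Kcne2* slope up and that of *Kcnj2* slopes down, and some genes below that level slope too, such as *Kcnn4* (log2FC -0.60), *Kcnh6* (-0.36) and *Kcnd1* (0.32), with intervals that cross 0.

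The comparison of SOR with HC asks which channel genes differ 1 h after training. Training included a habituation in an open field, which HC mice did not have, so learning and exposure to the arena cannot be told apart. A single channel gene passed the test: *Kcnj2*, a strong inward rectifier, fell by 36.7%. This is 1 of 83 tested (1.20%) against 0.309% of all genes (68 of 22018), and with a fold change above 1.4 required as well it was again 1 of 83 against 0.173% (38 of 22018). A further 7 genes had an unadjusted p under 0.05 without passing the adjustment, among them *Kcns2*, *Kcnn2*, *Kcna4*, *Kcnh1* and *Kcnip3*, which are described here. With *Kcnj2* these are 8 of 83 (9.64%), near the 10.1% of all genes at that p. By direction they were 4 with higher values in SOR (4.82%, against 4.54% of all genes) and 4 with lower values (4.82%, against 5.51%). The same 8 genes are those whose 4 SOR values all lay beyond the 4 HC values, 9.64% against 6.95% of all genes, with 4 above (background 2.99%) and 4 below (background 3.96%). Both counts, at the unadjusted p and of groups apart, lie near the background.

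The size of the differences was small for most members. The median log2FC of the 83 genes was -0.0075, with 37 above 0 and 46 below, and the median over all genes tested was -0.02. The median absolute log2FC was 0.0878 for the 83 genes and 0.0989 for all genes. For 60 of the 83 (72.3%) the 95% interval of the log2FC lay within a 1.4-fold change in either direction, against 58.9% of all genes. Among genes with an HC mean of at least 10 CPM, it did so for 46 of 49 channel genes (93.9%), close to the 95.1% of all such genes. The 3 exceptions were *Kcnj2*, *Kcnj16* and *Kcnt1*.

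**Figure D2:**
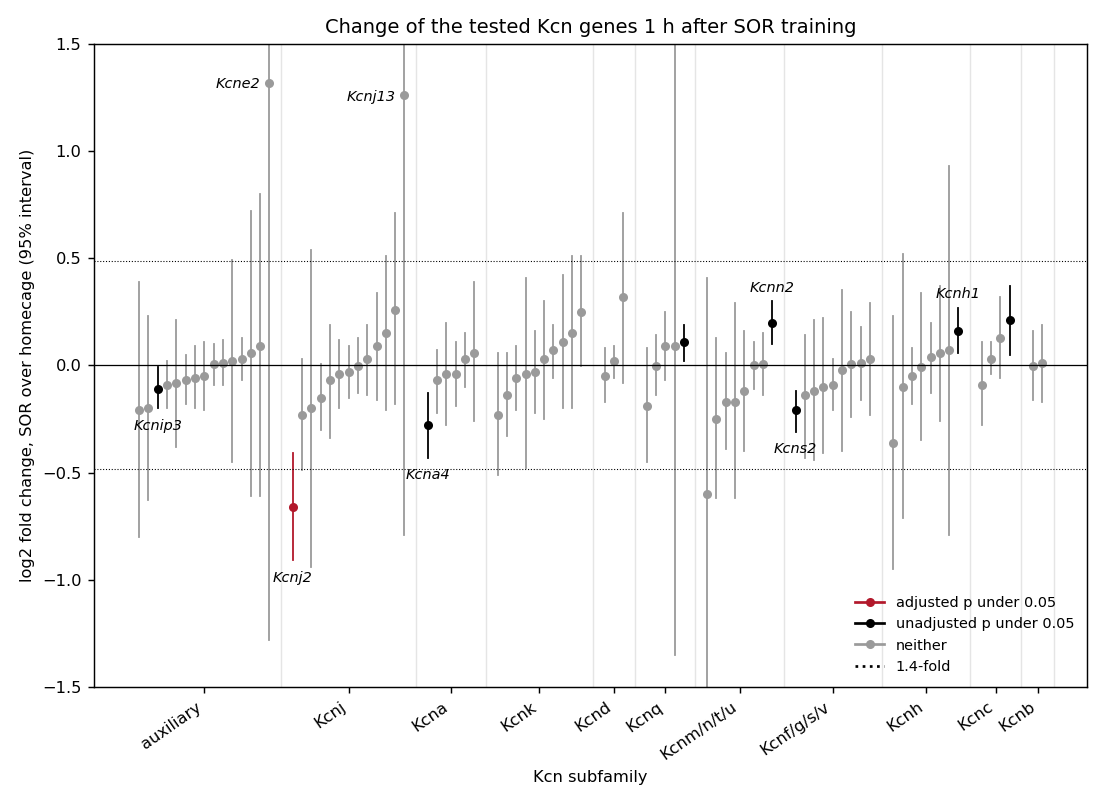
The log2 fold change of SOR over HC (points) with its 95% interval (lines) for the 83 tested Kcn genes, by subfamily, with *Kcnj2* in red, the 7 other genes with an unadjusted p under 0.05 in black (5 of them named), and dotted lines at 1.4-fold; lines that pass the edge of the axis are clipped there. *Kcnj2* at -0.66 has the only interval that lies wholly beyond 0 with its centre past the dotted line, while *Kcnj13* and *Kcne2* have centres above 1 with intervals that cross 0.

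*Kcnj2* lies on the plus strand at chr11:111066164-111076821 (GRCm38). Its product gives the inward rectifier current of many neurons and also of vascular endothelium and smooth muscle. The HC libraries held 30.4, 37.1, 33.0 and 24.1 CPM for replicates 1 to 4, and the SOR libraries 18.9, 21.3, 19.6 and 19.0. Every SOR value was below the lowest HC value, and the spread between mice was wider in HC (SD 5.42) than in SOR (SD 1.10). Its log2FC was -0.66 (SE 0.113, 95% interval -0.91 to -0.41), with an adjusted p of 0.0435 and p = 0.0286 in an exact two-sided permutation test over the 70 assignments of 4 against 4, the smallest that this design can give. The call sits near the threshold. It was lost with library sizes alone as scaling (adjusted p = 0.0613) and with limma-voom (adjusted p = 0.0801), while the other 10 alternatives with all 8 libraries kept it with adjusted p from 1.18e-05 to 0.0491. It was also lost without HC replicate 1, 2 or 3 (adjusted p = 0.111, 0.116 and 0.152) and without SOR replicate 1, 2, 3 or 4 (adjusted p = 0.117, 0.096, 0.120 and 0.135), and held without HC replicate 4 (adjusted p = 0.00965). In all 20 alternatives its log2FC stayed between -0.77 and -0.56.

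*Kcnj2* is known in neurons, vessels and glia, and markers of these cell types had the following values beside it. Of 5 dentate granule cell genes 1 was higher and 4 were lower, with a median log2FC of -0.09. At an unadjusted p under 0.05, 1 of them was higher and 0 lower. Of 5 hippocampal and excitatory neuron genes 2 were higher and 3 lower. The counts were 4 and 0 for CA1, 1 and 3 for CA3 and 2 and 4 for inhibitory neurons, with 0 genes of these 4 lists at that p. The summed CPM of 6 endothelial genes was 118 to 141 in HC and 128 to 131 in SOR, with 4 higher and 2 lower, and *Cldn5* of the tight junctions lay at 23.5 to 30.0 in HC and 21.6 to 23.1 in SOR (adjusted p = 0.199). That of 5 mural cell genes was 144 to 175 and 158 to 169, with 3 higher and 2 lower, and that of 7 microglia genes was 288 to 330 and 281 to 316, with 2 higher and 5 lower, 2 of these at an unadjusted p under 0.05. The 10 mature oligodendrocyte genes summed to 5556 to 6051 in HC and 4543 to 5937 in SOR, and all 10 had a log2FC below 0, with a median of -0.19 and 4 at an unadjusted p under 0.05. At that p, 1 endothelial gene was lower and 1 mural cell gene higher, and over all genes 5.51% were lower and 4.54% higher. None of these 28 vessel and glia marker genes, and none of the neuronal ones, passed the adjusted threshold in the quasi-likelihood fit. The groups did not overlap for *Opalin* (log2FC -0.50, adjusted p = 0.164), *Aspa* (-0.41, adjusted p = 0.0909) and *Cldn5*, all lower in SOR. The paper, with edgeR and RUVs factors, reports *Opalin* among the genes lower in its bulk data. None of the 28 was at 0 in any library, and the part of any marker in the *Kcnj2* difference was not tested.

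The sequence in front of the start site is shown for the 3 of the 8 genes that had a single RefSeq promoter entry, since these are the genes in which the groups were apart. RefSeq (GRCm38.p6) had 94 entries for 69 of the 94 channel genes, and *Kcns2* and *Kcnn2* had none. The 250 bases upstream of the RefSeq start are printed 5′ to 3′ on the strand of the gene, and capitals mark a match to any of 6 motifs of activity-regulated factors searched on both strands. These were the cAMP response element TGACGTCA, its shorter form TGACG (which lies within the full element), the AP-1 site TGANTCA, the EGR site GCGTGGGCG or GCGGGGGCG, the NR4A monomer site AAAGGTCA and the E-box CACGTG.
*Kcnj2*, chr11:111065914-111066163, plus strand: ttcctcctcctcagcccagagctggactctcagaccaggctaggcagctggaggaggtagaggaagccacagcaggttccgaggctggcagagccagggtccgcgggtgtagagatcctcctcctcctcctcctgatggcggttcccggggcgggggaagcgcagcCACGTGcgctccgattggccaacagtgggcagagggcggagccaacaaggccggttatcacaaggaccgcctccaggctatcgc
*Kcna4*, chr2:107290339-107290588, plus strand: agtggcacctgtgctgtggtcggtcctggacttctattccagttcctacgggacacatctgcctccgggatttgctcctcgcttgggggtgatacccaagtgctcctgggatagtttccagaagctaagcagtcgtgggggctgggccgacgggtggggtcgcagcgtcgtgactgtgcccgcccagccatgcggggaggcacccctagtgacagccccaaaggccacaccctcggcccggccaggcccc
*Kcnh1*, chr1:192190527-192190776, plus strand: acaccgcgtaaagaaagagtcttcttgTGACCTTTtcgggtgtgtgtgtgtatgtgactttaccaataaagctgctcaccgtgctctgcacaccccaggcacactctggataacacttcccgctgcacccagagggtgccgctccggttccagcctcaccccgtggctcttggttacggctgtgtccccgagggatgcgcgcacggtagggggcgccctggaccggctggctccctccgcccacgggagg
The *Kcnj2* window held 1 match, the E-box, which begins 84 bases before the start site. An E-box was found in 6.02% of all 32851 promoters and in 6.38% of the 94 channel gene promoters. The *Kcnh1* window held the NR4A site on the opposite strand, beginning 223 bases before the start site, a motif found in 1.34% of all promoters and in 1 of the 94 of channel genes. The *Kcna4* window held no match. For the other motifs, the full cAMP response element was in 0 of the 94 channel gene promoters (1.55% of all), its shorter form in 16% (17.8% of all), the AP-1 site in 4.26% (6.75% of all) and the EGR site in 3.19% (3.06% of all). The windows are rich in G and C, at 65.6% for *Kcnj2*, 65.2% for *Kcna4* and 62.0% for *Kcnh1*. The median was 58.6% over the channel gene promoters and 52.4% over all promoters.

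The *Kcna* genes encode axonal channels of the Shaker type. *Kcna4* (chr2:107290639-107298502, plus strand) encodes the member that inactivates within milliseconds and gives an A-type current in axons. Its HC values were 75.0, 92.7, 90.1 and 87.4 CPM and its SOR values 64.6, 74.6, 73.0 and 72.4. The groups did not overlap, but HC replicate 1 and SOR replicate 2 were only a fraction of a CPM apart. Its log2FC was -0.28 (SE 0.0691, 95% interval -0.43 to -0.13), with an adjusted p of 0.173. The exact permutation p was 0.0286, which only repeats that the groups did not overlap. The call turned with the fit: *Kcna4* passed with DESeq2, with the likelihood ratio test and with 1, 2 or 3 factors of unwanted variation from RUVs, and its adjusted p ranged from 0.00087 to 0.194 over the alternatives with all libraries and from 0.0617 to 0.414 when 1 library was left out. The paper reports *Kcna4* as lower after learning in CA1 and in the dentate gyrus. That result comes from its spatial data, with spots as the units of the test. The axonal partners *Kcna1* (108 ± 2.96 CPM in HC and 105 ± 11.0 in SOR, log2FC -0.04, interval -0.19 to 0.11) and *Kcna2* (206 ± 3.81 and 210 ± 18.3, log2FC 0.03, interval -0.10 to 0.15) had intervals on both sides of 0. The 6 tested *Kcna* genes had a median log2FC of -0.04, with 2 above 0 and 4 below.

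The beta and calcium-sensor subunits that assemble with *Kcna* and *Kcnd* pores are the most abundant of the auxiliary genes. *Kcnab2* held 531 ± 23.1 CPM in HC and 536 ± 20.7 in SOR (log2FC 0.01, interval -0.09 to 0.12), and *Kcnab1*, a beta subunit that confers fast inactivation, 114 ± 5.63 and 115 ± 2.17 (0.0077, interval -0.09 to 0.10). *Kcnip3* encodes a calcium-binding protein that is both a *Kcnd* subunit and a transcriptional repressor. Its HC values were 67.8, 70.0, 68.5 and 67.2 CPM and its SOR values 58.7, 63.9, 66.2 and 65.4, so that the groups lay just apart. Its log2FC was -0.11 (SE 0.045, adjusted p = 0.471), and no alternative called it (adjusted p 0.398 to 0.732 over all alternatives). The other sensors *Kcnip1* (log2FC -0.06), *Kcnip2* (0.03) and *Kcnip4* (-0.09) had intervals that crossed 0, the lowest reaching -0.20, and so did *Kcnmb4*, the neuronal subunit of the large-conductance channel (44.1 ± 0.451 and 42.1 ± 2.78 CPM, log2FC -0.07). Of 15 auxiliary genes tested, 7 were above 0 and 8 below, with a median of -0.05.

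Among the other voltage-gated pores, the *Kcnd* genes carry the dendritic A-type current. *Kcnd2* held 174, 183, 184 and 183 CPM in HC and 182, 186, 185 and 181 in SOR (SD 4.72 and 2.16), and its log2FC was 0.02 (interval -0.06 to 0.09). *Kcnd3*, which encodes a second A-type pore, had a log2FC of -0.05 (interval -0.17 to 0.08). The delayed rectifier *Kcnb2* held 56.8 ± 4.02 CPM in HC and 56.7 ± 5.16 in SOR (log2FC -0.0034, interval -0.16 to 0.16). Of the *Kcnc* genes, which let neurons fire at high rates, *Kcnc1* (42.3 ± 2.40 and 46.2 ± 6.03 CPM, log2FC 0.13) and *Kcnc2* (74.4 ± 1.53 and 76.0 ± 1.10, log2FC 0.03) had intervals that crossed 0.

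**Figure D3:**
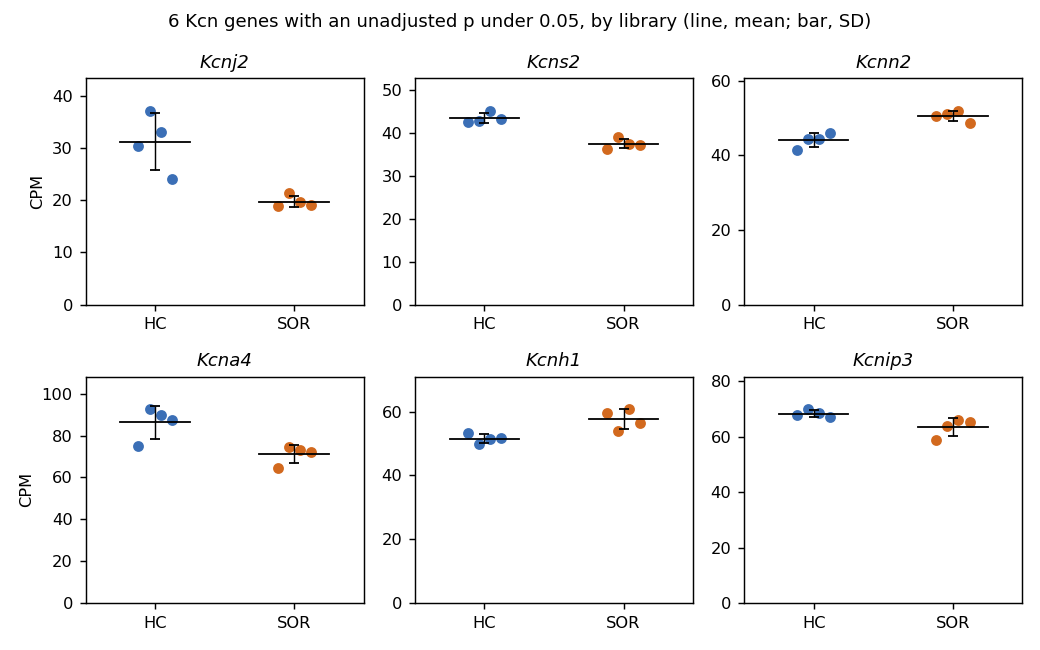
CPM of 6 Kcn genes with an unadjusted p under 0.05, 1 panel per gene on an axis from 0, with each HC library in blue, each SOR library in orange (n = 4 each), the mean as a line and the SD as a bar. In each panel the groups lie apart, by the widest relative margin in *Kcnj2* (HC 24.1 to 37.1, SOR 18.9 to 21.3) and barely so in *Kcna4*.

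The modifier subunits had 3 genes above 0 and 6 below of 9 tested, with a median of -0.09. *Kcns2* (chr15:34837355-34843407), whose product joins *Kcnb* pores and slows them, had HC values of 42.5, 42.8, 45.1 and 43.2 CPM and SOR values of 36.3, 39.0, 37.4 and 37.2. All SOR values were below all HC values, with SDs of 1.2 and 1.1, and after *Kcnj2* it had the smallest p of the family. Its log2FC was -0.21 (SE 0.0432, 95% interval -0.31 to -0.12), and the adjusted p was 0.0937. The exact permutation p, fixed by the groups being apart, was 0.0286. It passed in 5 of the 12 alternatives with all libraries, namely DESeq2, the likelihood ratio test and the 3 RUVs fits, over a range of adjusted p from 0.00408 to 0.262. *Kcnb2*, a pore partner, is given above. The more abundant modifiers *Kcnv1* (42.1 ± 1.57 CPM in HC and 39.6 ± 2.59 in SOR, log2FC -0.09) and *Kcnf1* (42.3 ± 2.99 and 42.5 ± 7.62, log2FC 0.0047) did not pass at an unadjusted p under 0.05.

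In the ether-a-go-go family *Kcnh1* (chr1:192190774-192510159), a voltage-gated channel of axons and terminals, had HC values of 53.3, 49.7, 51.4 and 51.6 CPM and SOR values of 59.6, 53.9, 60.8 and 56.3. The lowest SOR value was just above the highest HC value. Its log2FC was 0.16 (SE 0.048, adjusted p = 0.266), and no alternative called it, with adjusted p from 0.0586 to 0.550. *Kcnh7*, the most abundant of the family per length, held 147 ± 9.70 CPM in HC and 142 ± 9.31 in SOR (log2FC -0.05, interval -0.18 to 0.08). The 8 *Kcnh* genes had 4 above 0 and 4 below.

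The *Kcnq* genes form the M-current, which restrains repetitive firing. *Kcnq3* had 178 ± 6.84 CPM in HC and 189 ± 21.6 in SOR (log2FC 0.09, interval -0.07 to 0.25), and *Kcnq5* 82.2 ± 2.25 and 82.1 ± 7.85 (log2FC -0.001, interval -0.14 to 0.14).

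Of the channels opened by calcium or sodium, *Kcnn2* encodes the small-conductance channel of dendritic spines that limits synaptic potentials. Its HC values were 41.6, 44.4, 44.5 and 46.0 CPM and its SOR values 50.6, 51.1, 52.0 and 48.6, with every SOR value above every HC value. Its log2FC was 0.20 (SE 0.045, 95% interval 0.10 to 0.30), and the adjusted p was 0.138. The exact permutation p, fixed by the groups being apart, was 0.0286. It passed with DESeq2 and with 2 or 3 RUVs factors, over a range from 0.00135 to 0.313 with all libraries. Its relatives differed in sign: *Kcnn1* held 16.9 ± 1.98 CPM in HC and 15.0 ± 1.58 in SOR (log2FC -0.17, interval -0.39 to 0.06) and *Kcnn3* 19.0 ± 2.89 and 17.5 ± 2.58 (-0.12, interval -0.40 to 0.16), neither of which passed at an unadjusted p under 0.05. *Kcnma1* held 274 ± 6.96 and 275 ± 27.3 (log2FC 0.0071, interval -0.14 to 0.15), and the sodium-activated *Kcnt1* 18.8 ± 2.65 and 16.8 ± 5.79 (log2FC -0.17, interval -0.62 to 0.29). The subfamily, in which *Kcnu1* (log2FC -0.25) was also counted, had the lowest median, -0.14 over 8 genes, and this median moved to -0.02 without SOR replicate 1.

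Of the other 12 tested inward rectifier genes, none had an unadjusted p under 0.05. The G protein-gated subunits *Kcnj3* (201 ± 8.36 CPM in HC and 197 ± 13.5 in SOR, log2FC -0.03), *Kcnj6* (56.7 ± 3.95 and 56.7 ± 3.18, log2FC -0.0012) and *Kcnj9* (72.3 ± 3.64 and 70.5 ± 7.57, log2FC -0.04) had intervals within -0.20 to 0.13. *Kcnj4*, a strong inward rectifier of the same subclass as *Kcnj2*, had HC values of 42.0, 43.9, 41.1 and 43.2 CPM and SOR values of 32.9, 40.0, 41.5 and 39.5. The groups overlapped through SOR replicate 3, and the log2FC was -0.15 (p = 0.0563, adjusted p = 0.510, exact permutation p = 0.0571). The related genes *Kcnj12* (log2FC -0.07, interval -0.34 to 0.19) and *Kcnj14* (0.26, interval -0.18 to 0.71) differed in sign. *Kcnj11*, the pore of the ATP-sensitive channel, held 17.8 ± 2.81 and 18.9 ± 1.90 CPM (log2FC 0.09, interval -0.16 to 0.34). *Kcnj10*, through which astrocytes take up potassium, held 52.2 ± 3.88 and 53.2 ± 5.25 (log2FC 0.03, interval -0.14 to 0.19), and its partner *Kcnj16* 13.7 ± 0.725 and 11.7 ± 1.97 (log2FC -0.23, adjusted p = 0.551), with SOR replicate 4 lowest at 8.82. The 8 astrocyte marker genes had a median log2FC of -0.0025. *Kcnj8*, of vessel mural cells, was low at 2.82 ± 0.586 and 3.12 ± 0.309 CPM (log2FC 0.15). The 13 tested *Kcnj* genes had a median of -0.03, with 5 above 0 and 8 below.

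Leak channels had a median log2FC of -0.0035 over 10 genes, 5 above 0 and 5 below. *Kcnk1* held 73.8 ± 1.99 CPM in HC and 77.2 ± 6.62 in SOR (log2FC 0.07, interval -0.06 to 0.19), and its highest value, 87.0, was in SOR replicate 1. The mechano- and lipid-gated *Kcnk2* (21.5 ± 1.06 and 20.7 ± 1.48, log2FC -0.06), its relative *Kcnk10* (21.6 ± 2.62 and 19.7 ± 0.980, log2FC -0.14) and the acid-sensitive *Kcnk9* (39.3 ± 0.731 and 38.4 ± 5.53, log2FC -0.03) and *Kcnk3* (4.30 ± 0.241 and 4.78 ± 1.19, log2FC 0.15) had intervals that crossed 0. *Kcnk6*, a leak channel found in vessels, had a log2FC of 0.25 (interval -0.0037 to 0.51, adjusted p = 0.506), with HC values of 3.50, 3.01, 3.09 and 2.72 CPM and SOR values of 3.86, 3.43, 3.41 and 3.95. Its groups overlapped only through HC replicate 1.

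*Kcnj13* and *Kcne2* had the highest log2FC of the family, 1.26 and 1.32, and neither passed the test (adjusted p = 0.701 and 0.767). Both are known from the choroid plexus, where *Kcnj13* is an apical inward rectifier and *Kcne2* an auxiliary subunit. *Kcnj13* had HC values of 9.31, 0.690, 1.08 and 6.54 CPM and SOR values of 28.7, 6.27, 5.95 and 1.0. *Kcne2* had HC values of 8.91, 0.0845, 0.350 and 7.25 and SOR values of 28.0, 6.67, 6.37 and 0.195. Both genes had the same order of the 8 libraries, with HC replicate 2 lowest and SOR replicate 1 highest. The choroid plexus marker *Ttr*, which encodes transthyretin, had 997, 4.04, 39.8 and 800 CPM in HC and 3710, 802, 722 and 20.8 in SOR, which is the same order but for HC replicate 4 and SOR replicate 2. All 6 choroid plexus markers had a log2FC above 0, with a median of 1.33, none passed the adjusted threshold, and none was at 0 in any library. Without regard to group, the 5 libraries in which *Ttr* was at least 722 CPM are those in which *Kcnj13* and *Kcne2* were at least 5.95 and 6.37 CPM. How much choroid plexus each dissection held was not tested.

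**Figure D4:**
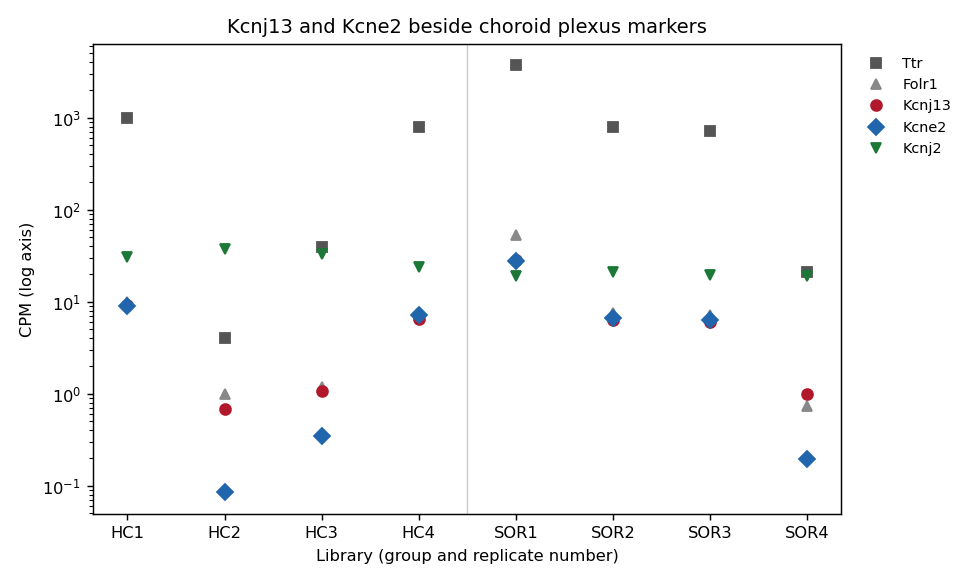
CPM (log axis) of *Kcnj13*, *Kcne2* and *Kcnj2* in each of the 8 libraries beside the choroid plexus markers *Ttr* and *Folr1*. *Kcnj13* and *Kcne2* are high where *Ttr* is high (SOR1 at 3710 CPM of *Ttr*, then HC1, SOR2, HC4 and SOR3) and low in HC2, HC3 and SOR4, whereas *Kcnj2* lies between 18.9 and 37.1 CPM in all 8.

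SOR replicate 1 stood apart for the channel genes. It held the lowest of the 4 SOR values for 44 of the 83 genes (53.0%), against 32.2% of all genes tested, and SOR replicate 3 the highest for 39 (47.0%), against 25.1% of all genes. The median deviation of the channel genes from their mean over the 8 libraries, in log2 CPM, was -0.12 in SOR replicate 1 and between -0.01 and 0.05 in the other 7 libraries, while that of all genes was -0.03 and between -0.01 and 0.02. *Kcna1* at 88.4 CPM against 109 to 112 in the other SOR libraries, *Kcnj3* at 177 against 202 to 206 and *Kcnma1* at 240 against 269 to 303 show it. *Kcnab2* (565 CPM against 519 to 535) and *Kcnk1* (87.0 against 72.6 to 75.5) were highest in that library instead. Without SOR replicate 1, no channel gene was called by the quasi-likelihood test of edgeR, 10 of 83 had an unadjusted p under 0.05 (9.65% of all genes then), and the median log2FC was 0.01. The loss of the call is not particular to this library, since leaving out any other library but HC replicate 4 gave no called channel gene either.

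The 11 genes left out of the test for low counts were *Kcna7*, *Kcna10*, *Kcne1*, *Kcne3*, *Kcnj1*, *Kcnj15*, *Kcnk7*, *Kcnk15*, *Kcnk16*, *Kcnk18* and *Kcnv2*. They include channel genes best known from kidney, muscle, inner ear, retina or sensory ganglia. None had more than 17.2 estimated counts in any library, and *Kcna7*, *Kcnj1* and *Kcnk16* had 0 counts in 7 of the 8 libraries and less than 1 in the other. With no filter on low counts, when all 94 genes were tested, *Kcnj2* was the only gene called by edgeR, so that no difference was detectable in these 11 at this depth. A count of 0 allows up to 3 counts in a library, for counting error only.

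The proteins that assemble with these channels or move potassium were compared as 2 lists. None of 29 tested partner genes, among them *Dpp6*, *Cntnap2*, *Lgi1*, *Ank3* and the calmodulin genes, and none of 14 genes for the sodium-potassium pump and the cation-chloride cotransporters passed the test of edgeR, against 0.309% of all genes. By an unadjusted p under 0.05 there were 2 of the 29 and 1 of the 14, against 10.1% of all genes, and none of the 20 alternatives called any gene of either list. The partners had a median log2FC of -0.02 (9 above 0 and 20 below), and the transport genes of 0.02 (10 above 0 and 4 below). *Nedd4l*, a ubiquitin ligase that removes *Kcnq* channels from the membrane, held 116, 136, 133 and 132 CPM in HC and 135, 147, 145 and 148 in SOR (log2FC 0.15, adjusted p = 0.381). *Grip1*, a scaffold protein, held 34.5 CPM in HC and 31.7 in SOR (log2FC -0.12, adjusted p = 0.461). The glial pump subunit *Atp1b2* held 34.9, 37.7, 36.2 and 42.2 CPM in HC and 39.8, 46.7, 42.2 and 45.4 in SOR (log2FC 0.20, adjusted p = 0.365), and the cotransporter *Slc12a7* 2.65, 2.28, 2.37 and 3.20 and 5.75, 5.07, 2.34 and 2.62 (log2FC 0.59, adjusted p = 0.515). In each of these 4 genes the groups overlapped, and the high values of *Slc12a7* were in SOR replicates 1 and 2.

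Which channel genes pass differed between the fits. The quasi-likelihood test called *Kcnj2* alone, and the likelihood ratio test and the fit with 1 RUVs factor called *Kcnj2*, *Kcns2* and *Kcna4* (3 of 83, against 0.972% and 1.35% of all genes). Fits with 2 and 3 RUVs factors added *Kcnn2* (4 of 83, against 2.26% and 2.29%), and DESeq2 called 5 of 83, these 4 among them (against 1.98%). The log2FC of these 4 genes moved little over the 12 alternatives with all libraries: -0.66 to -0.64 for *Kcnj2*, -0.21 to -0.19 for *Kcns2*, -0.28 to -0.26 for *Kcna4* and 0.19 to 0.22 for *Kcnn2*.

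**Figure D5:**
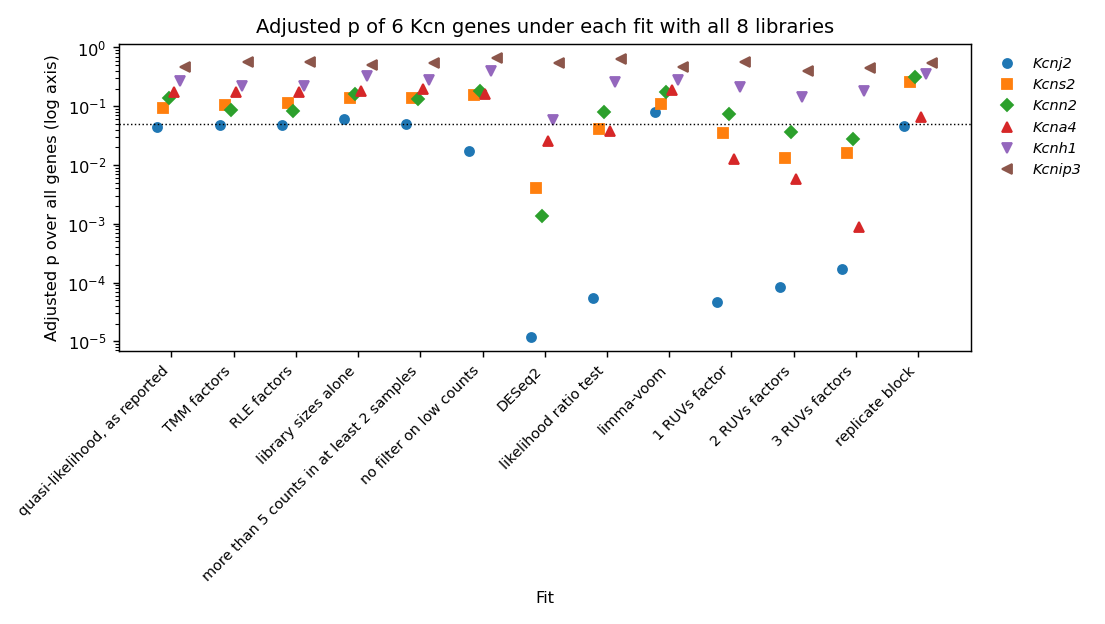
Adjusted p over all genes (log axis) of 6 Kcn genes with an unadjusted p under 0.05, for the reported quasi-likelihood fit and the 12 alternatives with all 8 libraries, with a dotted line at 0.05. *Kcnj2* lies below the line in all but the library size and limma-voom fits, and *Kcns2*, *Kcna4* and *Kcnn2* cross it with DESeq2 and with 2 or 3 RUVs factors, the first 2 of these also with the likelihood ratio test and 1 RUVs factor.

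Some channel genes share sequence with a neighbour. The exons of 26 of the 94 genes overlap those of another gene on the opposite strand, among them *Kcnq1* with *Kcnq1ot1*, *Kcnd3* with *Kcnd3os*, *Kcnj13* with *Gigyf2* and, by genes without a known role, *Kcnn2*, and those of *Kcnab2* and *Kcnk4* overlap another gene on the same strand. The library kit keeps the strand, but the strand setting of the counting is not given in the sources used here, so that reads of such pairs may have been split or dropped. The 3 noncoding transcripts with a *Kcn* symbol that were tested did not pass: *Kcnq1ot1* held 321 ± 33.0 CPM in HC and 347 ± 45.9 in SOR (adjusted p = 0.757), *Kcnd3os* 0.911 ± 0.170 and 0.674 ± 0.146 (adjusted p = 0.543) and *Kcnmb4os2* 1.49 ± 0.258 and 1.41 ± 0.462 (adjusted p = 0.951).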

How the data were processed

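RNA of the dorsal hippocampus was sequenced from 4 HC and 4 SOR mice. The deposited values are estimated counts per gene, summarized with tximport by the authors without normalization; the methods name a stranded kit for total RNA that removes ribosomal RNA (the labels say polyA RNA), bcbio-nextgen, STAR and featureCounts, and the labels name mm10. The quantifier behind tximport is not given in the sources used here. Of the deposited values 52.6% were not whole, and counts were rounded.

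Gene types, positions and exon lengths were taken from GENCODE M21 (GRCm38), which had a record for 54495 of 54532 rows; 99 symbols began with *Kcn* and 94 of these were protein-coding, the other 5 being antisense RNAs. Genes were filtered with filterByExpr, scaled with upper-quartile factors and compared with the quasi-likelihood test of edgeR 4.0.16 (limma 3.58.1, R 4.3.3), with Benjamini-Hochberg adjustment over 22018 genes. Each SE is the log2 fold change divided by the root of F. An exact permutation test on log2 CPM, two-sided, was run for single genes. Any gene whose groups do not overlap gets its smallest p, so for such genes it adds nothing to the statement that the groups were apart. CPM per kb divides CPM by the union of exons. Only the quasi-likelihood fit was tested on simulated data, and the alternatives were not. The alternatives tried were scaling by TMM, RLE or library size alone, other filters, DESeq2 1.42.0, the likelihood ratio test without and with 1 to 3 RUVs factors (the study used RUVs with a number of factors that is not given), limma-voom, a replicate block and leaving out each library. Figures used Python 3.11.15 and matplotlib 3.10.9.

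The named genes are those at an unadjusted p under 0.05, those with groups apart, *Kcna4*, the highest gene per kb of each subfamily (some genes that meet the rule are not reported here), known hippocampal, glial and vessel channel genes, every untested gene, genes of the partner and transport lists that were called or had the 2 smallest p, and 4 genes that check the labels. The members, lists and tests were chosen with earlier results of these data known. Each library is a separate mouse.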

Additional observations from a re-analysis of the deposited data

Results flagged for a closer look

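A library was singled out where its gap to the nearest of its group of 4 was a larger part of the range of the group than the 95% critical value of Dixon allows. This held in 12 of the 166 groups of the 83 tested channel genes (7.23%), where chance gives about 1 in 20.

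SOR replicate 1 was singled out 4 times: *Kcnj3* was at 177 CPM against 202 to 206 in the other SOR libraries, *Kcna1* at 88.4 against 109 to 112, *Kcnn1* at 17.4 against 14 to 14.6 and *Kcnj14* at 2.27 against 1.25 to 1.42. HC replicate 1 was lowest 3 times: *Kcnj3* was at 189 CPM against 205 to 206, *Kcnab2* at 496 against 539 to 545 and *Kcnd2* at 174 against 183 to 184. HC replicate 4 was highest in *Kcnq1* (0.941 against 0.210 to 0.325) and *Kcnmb2* (6.45 against 2.68 to 2.95). SOR replicate 3 was highest in *Kcnh4* (1.42 against 0.548 to 0.593) and *Kcnj11* (21.7 against 17.6 to 18.1), and SOR replicate 2 in *Kcnj6* (61.4 against 54.7 to 55.4). None of these genes was called by the test of edgeR, and the cause was not tested.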

How the results depend on the processing

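The count of channel genes called was 1, and it was 0 with library sizes alone (53 of all genes called) and with limma-voom (63 of all genes), 3 with the likelihood ratio test (214) and with 1 RUVs factor (297), 4 with 2 (498) and with 3 (505) RUVs factors and 5 with DESeq2 (435), against 68 of all genes in the reported fit. It ranged from 0 to 1 when 1 library was left out. The count at an unadjusted p under 0.05 was 8 of 83, against 10.1% of all genes. That count ranged from 6 of 83 without HC replicate 2 (7.78% of all genes) to 15 of 83 without SOR replicate 3 (10.4% of all genes). The median log2FC ranged from -0.04 to 0.04 for *Kcnk*, from -0.02 to 0.12 for *Kcnq*, from -0.18 to -0.02 for *Kcnm*, *Kcnn*, *Kcnt* and *Kcnu* and from -0.06 to 0.02 for the auxiliary genes when 1 library was left out. The other 281 summary values kept within 1.5 times the reported count or within the spread between replicates. None of the 8 genes of the unadjusted list changed sign in any of the 20 alternatives, and their single values were on the same side of the threshold as reported in 137 cases, past it in 14 more and no longer past it in 9, all 9 of *Kcnj2*, whereas 35 of the 83 tested genes did so in at least 1. The cause was not tested.

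A replicate block gave 1 called channel gene, *Kcnj2*, 8 at an unadjusted p under 0.05 and a median of -0.02, while 40 of all genes were called. The replicate numbers showed no sign of pairing: the deviations of libraries with the same number correlated at -0.0837 to 0.073 and those of other pairs at -0.20 to 0.194. These values cannot show whether mice were handled in pairs. With 4 mice per group, some low-count genes had intervals beyond 1.4-fold in either direction, such as *Kcnh4* (log2FC interval -0.79 to 0.93). Others did not, such as *Kcnk5* (-0.48 to 0.41).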
